A study of Mus musculus with 2 samples.

Results

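Glutathione, thioredoxin and antioxidant enzymes form the thiol and peroxide defence of a cell, and 50 mouse genes of this kind were followed here in macrophages with and without lipopolysaccharide (LPS). The members were named gene by gene, and every probe set that the annotation of the Mouse Genome 430 2.0 array (Affymetrix) assigns to exactly 1 gene, that gene being a member, was taken. Of the 50 members, 46 had such probe sets, 93 in all, out of 18193 genes and 34945 probe sets on the array. Prdx1, Prdx5, Prdx6 and Akr1b3 had none assigned to them alone and were not analysed here.

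The 2 groups were bone-marrow-derived macrophages of C57BL6 mice treated with LPS and the same kind of macrophages left without it, both cultured in M-CSF, the growth factor that turns marrow precursors into macrophages. No age, sex, genetic change, LPS dose or duration is given in the labels, and nothing there says whether the marrow of several mice was pooled. Biotin-labelled cRNA made from 100 ng of total RNA was read on 1 array per condition. With no replicates there is no test, no p-value and no error between cultures: every difference below describes these 2 arrays, and their number limits the precision of each value. In RNA from a whole culture, fewer cells of a type and less RNA per cell cannot be told apart.

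Signals are given in the linear units in which they were deposited, the LPS array first. A signal counted as measured when it reached the median signal of its own array, 26.7 on the LPS array and 35.1 on the control array, here called the floor. A signal under the floor was raised to it before a ratio was taken. Each gene is read by its brightest probe set, and ratios are log2 LPS minus log2 control. Of the 46 genes, 43 were measured on at least 1 array and 42 on both. The median of all 11722 measured genes was not 0 but -0.42 on this scale, so ratios centred on that median are given beside the deposited ones where the reading differs. Whether this shift is one of scaling or of the RNA was not tested, and neither reading, deposited or centred, is preferred here. Where a gene had several probe sets measured on both arrays, the SD of their ratios was taken. Its median was 0.18 over 22 antioxidant genes and 0.28 over 4494 genes of the array. This gauges the spread between probe sets of a gene on the same arrays. Error shared by all probe sets of an array is not in it. All 9 macrophage markers with a probe set lay above the floor on both arrays, while of 34 markers of 8 other cell types 8 did so on the LPS array and 5 on the control array. Among these were 4 neutrophil genes on the LPS array and 3 on the control array, with summed signals over the 7 markers of that list of 729 and 470.3. T cell, NK cell and mast cell markers were all under the floor. Whether other cells had a part in the ratios was not tested.

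Glutathione is a tripeptide whose first, rate-limiting bond is made by glutamate-cysteine ligase. Glutathione peroxidases spend it to reduce peroxides, transferases attach it to electrophiles, and glutathione reductase restores it with NADPH. Thioredoxin, kept reduced by its own NADPH-dependent reductase, serves the peroxiredoxins in the same way. The transcription factor Nrf2 drives many of these genes through antioxidant response elements, and in macrophages the system meets the superoxide, hydrogen peroxide and nitric oxide that activated phagocytes make.

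The members lay on both sides, with more on the lower one. As deposited 33 ratios were negative and 10 positive, and after centring 28 were negative and 15 positive. With a median of -0.42, most measured genes of the array were negative as deposited too, and centring leaves as many negative as positive. The exact share of negative ratios over all measured genes was not computed. Sod2, the mitochondrial superoxide dismutase, stood highest at 8.97-fold higher on the LPS array, followed by the glutathione transferase gene Gstt1, the glutathione reductase gene Gsr and the glutaredoxin gene Glrx. At the other end were Gclc, the catalytic subunit of glutamate-cysteine ligase, at 6.75-fold lower, the thioredoxin inhibitor gene Txnip at 5.06-fold lower and the biliverdin reductase gene Blvra at 3.06-fold lower. As deposited, 4 of 43 measured members (9.30%) were at least 2-fold higher, against 8.22% of all measured genes, and 11 (25.6%) were at least 2-fold lower, against 26.2%. After centring, 7 members (16.3%) were higher, against 13.1% of all measured genes, and 4 (9.30%) were lower, against 15.3%. Among the 7 is Gsta4, which was under the floor on the control array. As deposited, then, the shares of called members lay close to the shares over the whole array, and the members' median of -0.59 stood beside -0.42 for all genes. What can be described is which enzymes lay at each end.

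**Figure D1:**
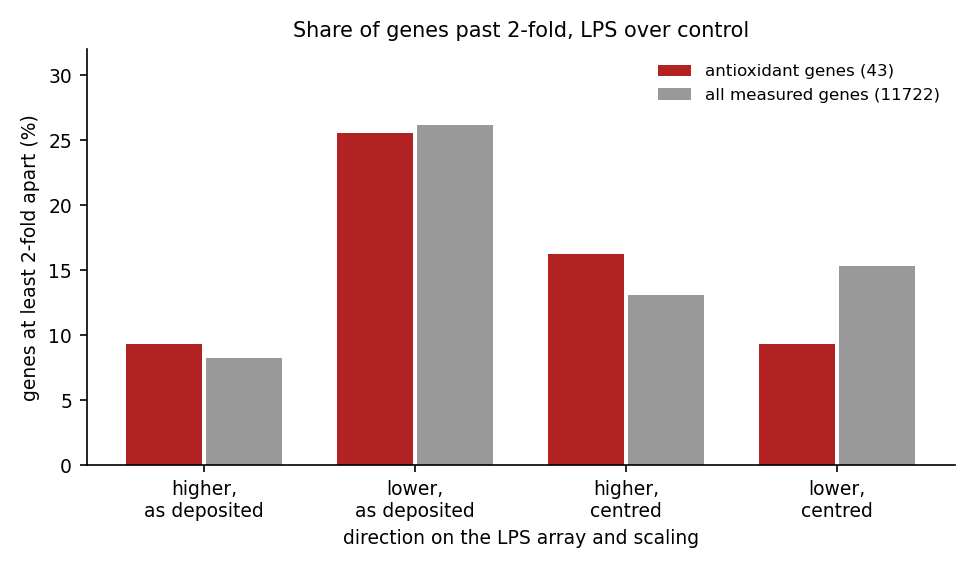
Share of genes at least 2-fold apart between the arrays (%), for the 43 measured antioxidant genes (red bars) and all 11722 measured genes (grey bars), by direction on the LPS array and scaling. As deposited the bars of a pair nearly match, at 9.30% and 8.22% higher and 25.6% and 26.2% lower.

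The promoters of the genes at both ends are shown here so that their letters can be set beside the values below. RefSeq promoter windows (build GRCm38.p6) were at hand for 41 of the 50 members. They were not at hand for Gclc, Gsr, Gstt2, Gsta4, Prdx6, Sod3, Msra, Ggt5 and Akr1b3. Each sequence is the 250 bases before the annotated start, written 5′ to 3′ along the gene. Capitals mark matches, on either strand, to an antioxidant response element core (TGACNNNGC), an AP-1 site (TGANTCA), one form of the NF-kB site (GGGA, any 2 bases, TTCC), an E-box (CACGTG) or a form of the carbohydrate response element (CACGNG, any 5 bases, CACGNG), the element through which glucose-sensing factors are known to drive Txnip. Shown are the 3 members at least 2-fold higher that had a window (Sod2, Gstt1 and Glrx) and the 4 lowest members that had one (Txnip, Blvra, Srxn1 and Gclm).
Sod2, chr17:13007589-13007838, + strand: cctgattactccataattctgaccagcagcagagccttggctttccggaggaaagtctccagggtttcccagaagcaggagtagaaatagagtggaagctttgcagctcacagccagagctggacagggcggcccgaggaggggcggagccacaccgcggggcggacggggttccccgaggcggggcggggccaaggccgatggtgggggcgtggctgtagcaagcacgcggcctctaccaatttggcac
Gstt1, chr10:75797732-75797981, - strand: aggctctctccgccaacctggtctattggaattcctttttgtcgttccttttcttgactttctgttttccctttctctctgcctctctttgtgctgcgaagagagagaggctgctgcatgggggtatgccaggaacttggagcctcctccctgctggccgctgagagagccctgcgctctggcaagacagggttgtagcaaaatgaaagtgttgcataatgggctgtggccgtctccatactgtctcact
Glrx, chr13:75839635-75839884, + strand: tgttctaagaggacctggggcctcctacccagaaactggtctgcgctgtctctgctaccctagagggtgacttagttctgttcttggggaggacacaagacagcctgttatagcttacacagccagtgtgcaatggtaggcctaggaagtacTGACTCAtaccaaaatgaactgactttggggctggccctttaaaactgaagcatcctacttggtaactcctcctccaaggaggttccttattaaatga
Txnip, chr3:96557707-96557956, + strand: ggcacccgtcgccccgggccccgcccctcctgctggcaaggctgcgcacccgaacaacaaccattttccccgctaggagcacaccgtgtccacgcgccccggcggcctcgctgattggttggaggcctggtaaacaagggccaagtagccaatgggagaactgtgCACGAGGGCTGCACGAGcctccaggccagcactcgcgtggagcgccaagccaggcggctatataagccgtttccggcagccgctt
Gclm, chr3:122245307-122245556, + strand: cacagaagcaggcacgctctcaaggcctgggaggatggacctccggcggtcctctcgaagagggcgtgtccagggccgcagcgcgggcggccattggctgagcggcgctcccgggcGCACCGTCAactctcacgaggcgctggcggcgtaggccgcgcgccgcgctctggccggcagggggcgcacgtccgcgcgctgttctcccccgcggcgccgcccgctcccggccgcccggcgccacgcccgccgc
Srxn1, chr2:152105274-152105523, + strand: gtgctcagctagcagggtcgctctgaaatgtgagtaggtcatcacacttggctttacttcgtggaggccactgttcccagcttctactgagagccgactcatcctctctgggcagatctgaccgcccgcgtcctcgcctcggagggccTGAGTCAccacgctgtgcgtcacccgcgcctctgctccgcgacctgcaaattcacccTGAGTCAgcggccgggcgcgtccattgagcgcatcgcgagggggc
Blvra, chr2:127070407-127070656, + strand: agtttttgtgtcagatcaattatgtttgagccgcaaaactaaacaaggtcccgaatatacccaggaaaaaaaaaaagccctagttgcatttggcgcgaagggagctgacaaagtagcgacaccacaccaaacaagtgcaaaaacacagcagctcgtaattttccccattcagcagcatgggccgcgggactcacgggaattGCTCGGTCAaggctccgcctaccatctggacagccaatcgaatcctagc

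In these windows Glrx held an AP-1 match at positions -98 to -92 from the start, and Srxn1 held one at -102 to -96 and another at -45 to -39. Txnip held the carbohydrate response element form at -85 to -69. Gclm held an antioxidant response element core at -134 to -126 and Blvra one at -49 to -41, both on the strand opposite to the gene. The Sod2 and Gstt1 windows held no match, which says only that these letters are not in those stretches. Other forms of the NF-kB site were not searched, and the Sod2 window holds ggggttcccc, which the searched form does not cover. Over the 41 members, 8 (19.5%) held the TGACNNNGC form of the antioxidant response element core, against 11.5% of 27025 genes with a window. The AP-1 site was held by 6 (14.6%), against 7.82%. Matches to TGACNNNGC and to the AP-1 site overlapped in 1 member, Prdx1. Other forms of the core were not searched. The Srxn1 match at -45 to -39 is followed by gc and reads TGAGTCAGC, with TGAG in place of TGAC. An E-box was found in 2 members (4.88%, against 6.86%), the NF-kB form in 1 (2.44%, against 1.36%) and the carbohydrate form in 1, Txnip (2.44%, against 0.0518%, or 14 genes). The carbohydrate form was searched as an element known to drive Txnip, so its share among the members is not evidence of an excess. Of the 10 members at least 2-fold lower that had a window, 3 held the TGACNNNGC form, and of the 3 higher ones 0 did. A match is a string of letters, and binding was not measured.

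**Figure D2:**
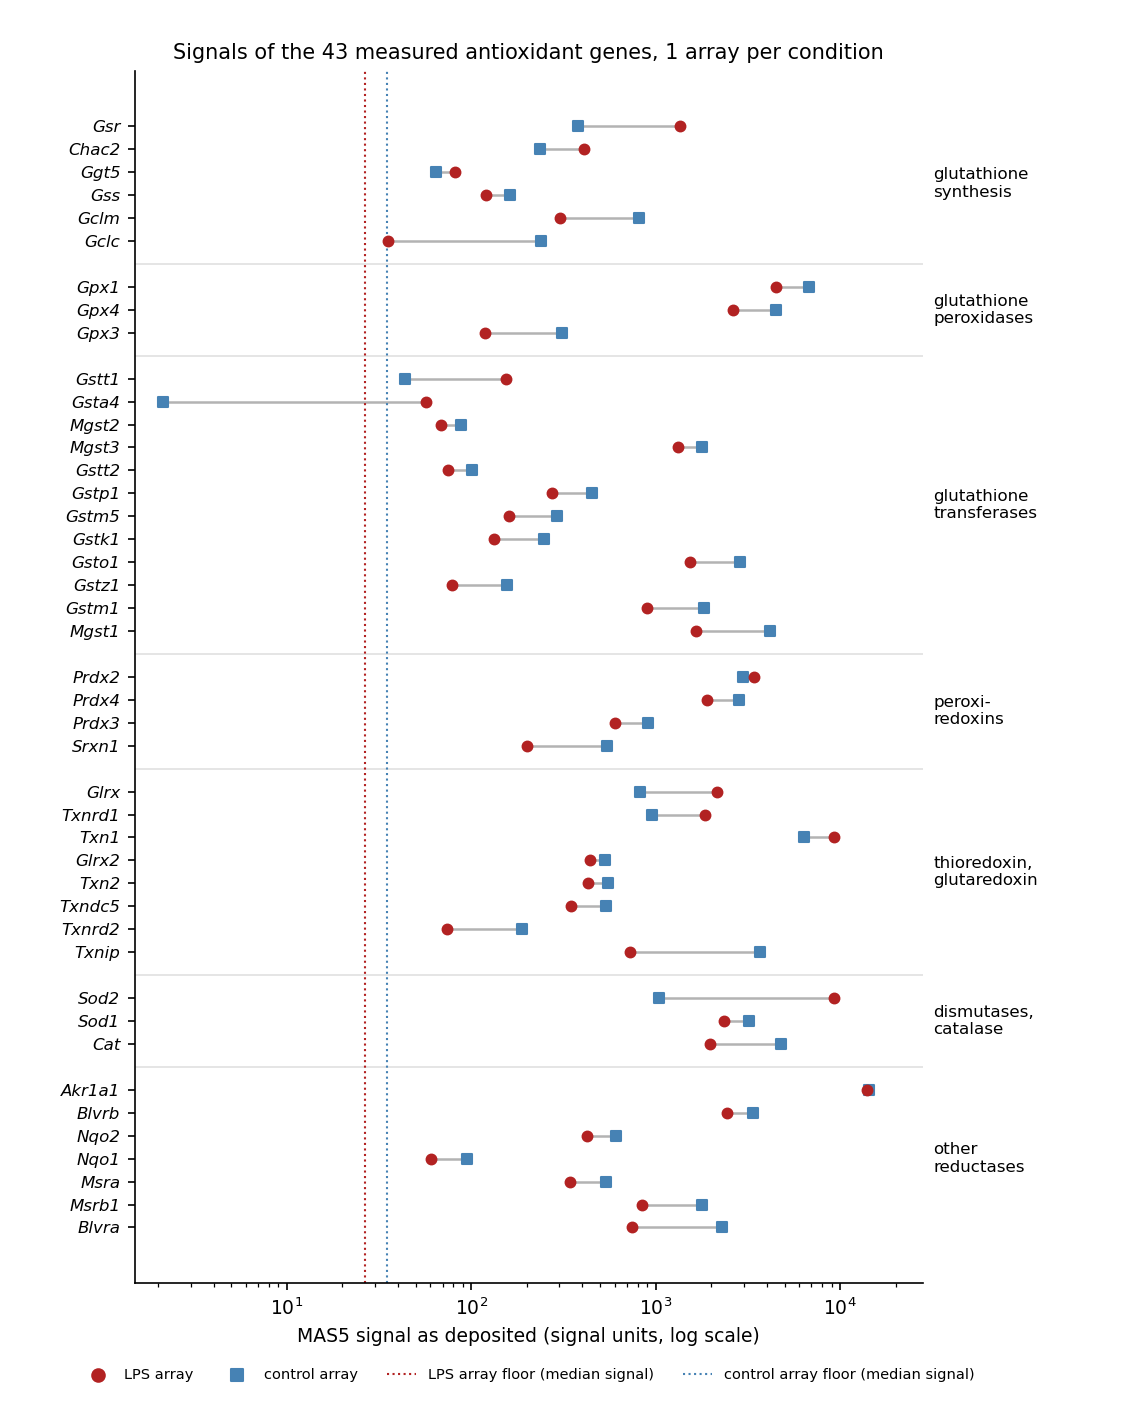
MAS5 signals (signal units, log axis) of the 43 measured genes on the LPS array (red circles) and the control array (blue squares), grouped by role, with each array's floor as a dotted line. The widest gap with both signals above the floor is that of Sod2, and the control signal of Gsta4 at 2.14 lies far under the floor.

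Genes of glutathione synthesis and recycling lay on both sides. Both subunits of glutamate-cysteine ligase were lower on the LPS array, and the reductase that regenerates glutathione was higher. Gclc had signals of 35.2 on the LPS array and 238 on the control array, and its other probe set had 26.5, just under the floor, and 228. That is 6.75-fold lower by the brightest probe set and at least 8.55-fold lower by the other. Since its LPS signals sit at the floor, the size depends on where the floor is set, and with a floor at the 65th percentile the log2 ratio was -1.99 in place of -2.76. Gclm, the modifier subunit that raises the activity of the ligase, had 304 on the LPS array and 815 on the control array, 2.68-fold lower, and its dimmer probe set had 53.7 and 167. After centring, its ratio of -0.997 fell just inside 2-fold. Gss, which encodes the synthetase that completes the tripeptide, had 121 on the LPS array and 161 on the control array, or -0.42 on the log2 scale, which equals the shift of the array and becomes positive once centred.

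Gsr had 1352 on the LPS array and 379.95 on the control array by its brightest probe set, and 729 and 299.9 by the other, 3.56-fold and 2.43-fold higher. Its ratio stayed past 2-fold under all 5 scalings. Chac2, which encodes a cytosolic enzyme that degrades glutathione, had 408 on the LPS array and 237 on the control array, 1.72-fold higher, and was past 2-fold after centring at 1.21 on the log2 scale. Ggt5, a cell-surface enzyme that cleaves glutathione conjugates, was dim, and its probe sets differed in direction, with 81.2 and 64.4 by the brighter one and 18.5, under the floor, and 40.5 by the other. In all, 1 of these 6 genes (16.7%) was at least 2-fold higher and 2 (33.3%) were lower, against 8.22% and 26.2% of all measured genes.

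Of the glutathione peroxidases, 3 of 5 were measured, and all 3 lay on the lower side under every scaling tried. Gpx1, the abundant cytosolic enzyme, had 4493 on the LPS array and 6767 on the control array, a log2 ratio of -0.59. Gpx4, which reduces lipid peroxides in membranes, had 2627 on the LPS array and 4499.9 on the control array, at -0.78. Both lay within 2-fold. Gpx3, the secreted form known from plasma, had 119 on the LPS array and 310.2 on the control array, 2.61-fold lower, and -0.96 after centring. Gpx7 and Gpx8, endoplasmic reticulum members of the family, were under the floor on both arrays, with 13.0 and 25.6 for Gpx7 and 1.08 and 1.09 for Gpx8.

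All 12 glutathione transferases were measured. As deposited 10 of them had negative ratios, as most measured genes of the array did, and after centring 9 did. Their median was -0.79, and -0.37 after centring. Those at least 2-fold lower were Mgst1, a microsomal transferase and peroxidase, with 1663 on the LPS array and 4163 on the control array (2.50-fold), and Gstm1, a cytosolic mu-class enzyme, with 901 and 1828 (2.03-fold). Neither remained past 2-fold after centring, at -0.90 and -0.60. The 4 probe sets of Gstm1 ranged from -1.02 to -0.11, and probe sets of this family, whose members are alike in sequence, can pick up each other's transcripts.

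Within 2-fold on the lower side were 6 more cytosolic or organellar transferases. Gsto1, an omega-class enzyme with glutaredoxin-like activity, had 1532 on the LPS array and 2854 on the control array, and its dimmer probe set was at -1.20. Gstz1, the zeta-class enzyme of tyrosine breakdown, had 79.1 on the LPS array and 156 on the control array, and Gstk1, found in mitochondria and peroxisomes, had 134 and 247. These 3 had deposited log2 ratios of -0.90, -0.98 and -0.89. The mu-class gene Gstm5 had 160.4 on the LPS array and 292 on the control array, and the pi-class gene Gstp1 had 275 and 449.7. Gstt2, of the theta class, had 74.5 on the LPS array and 101 on the control array, and its ratio of -0.44 changes sign under quantile normalization and loess.

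The microsomal genes Mgst2 and Mgst3, of the enzyme family that also makes leukotriene C, stood near the shift of the array. Mgst2 had 68.3 on the LPS array and 88.3 on the control array, and Mgst3 had 1319.6 and 1783, with log2 ratios of -0.37 and -0.43. Gstt1, the other theta-class gene, stood on the other side with 155 on the LPS array and 43.5 on the control array, 3.56-fold higher by its single probe set. Its control signal was close to the floor, and with a floor at the 65th percentile the log2 ratio was 0.77, within 2-fold. Gsta4, whose alpha-class enzyme detoxifies the lipid aldehyde hydroxynonenal, had 56.5 on the LPS array and 2.14, under the floor, on the control array, at least 1.61-fold higher.

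**Figure D3:**
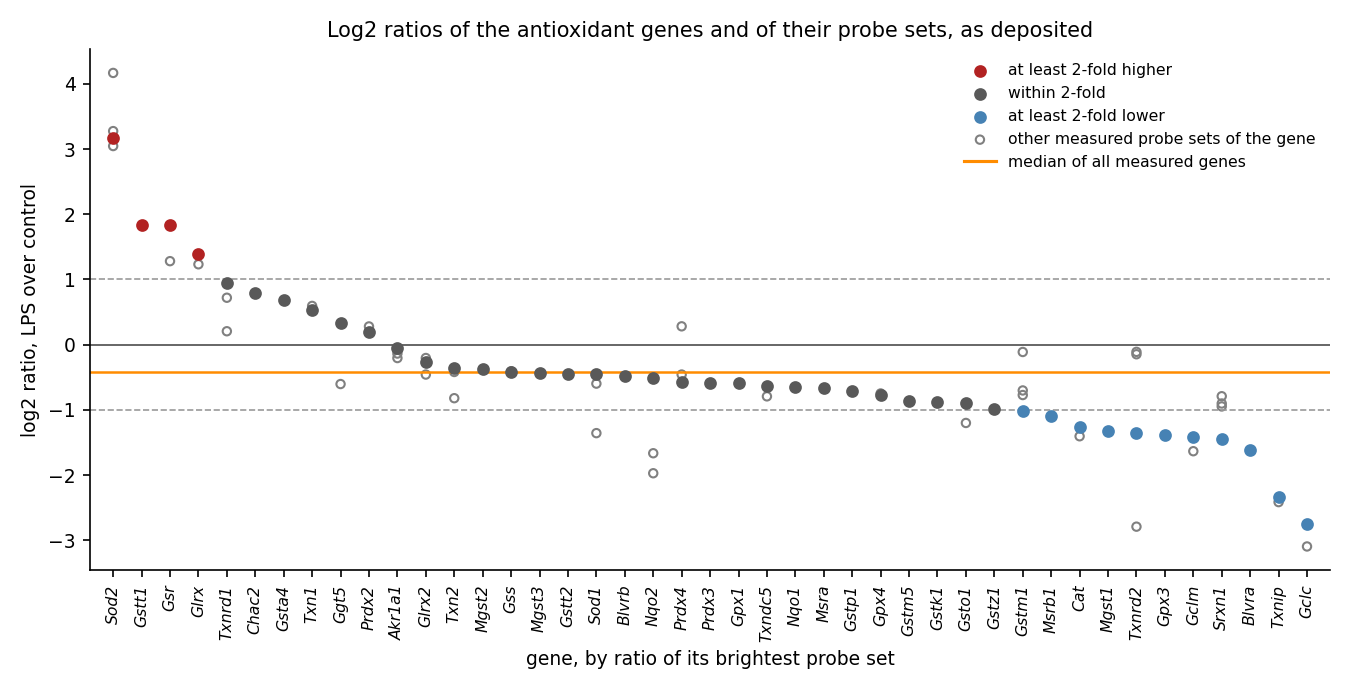
Log2 ratio, LPS over control, of each measured gene by its brightest probe set (filled: red at least 2-fold higher, blue at least 2-fold lower, dark grey within) and by its other measured probe sets (open circles), with 2-fold marked by dashed lines and the median of all measured genes, -0.42, by an orange line. Sod2 stands alone at 3.17, Gclc is lowest at -2.76, and the probe sets of Txnrd2 and Nqo2 spread widely.

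Among the peroxiredoxins, which reduce peroxides with a reactive cysteine, 3 of 6 had probe sets of their own and none was past 2-fold. Prdx2, a cytosolic form, had 3408 on the LPS array and 2969.6 on the control array, at 0.20. Prdx3, the mitochondrial form, had 600.3 on the LPS array and 903 on the control array, at -0.59. Prdx4, the form of the endoplasmic reticulum, had 1902 on the LPS array and 2816 on the control array, at -0.57, but another probe set of nearly equal brightness had 1857 and 1528, at 0.28. It was the only gene of the 22 with several probe sets measured on both arrays whose probe sets differed in sign. Srxn1, which encodes sulfiredoxin, the enzyme that rescues overoxidized peroxiredoxins, had 200.4 on the LPS array and 544 on the control array, 2.71-fold lower. Its other 3 probe sets lay between -0.95 and -0.79, and its median probe set ratio of -0.93 was within 2-fold.

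Of 8 thioredoxin and glutaredoxin genes, 1 was at least 2-fold higher (Glrx) and 2 were lower (Txnip and Txnrd2). These are 12.5% and 25%, against 8.22% and 26.2% of all measured genes. After centring 2 were higher (Glrx and Txnrd1) and 1 was lower (Txnip), or 25% and 12.5%, against 13.1% and 15.3%. Txn1, the cytosolic thioredoxin, had 9224 on the LPS array and 6397 on the control array, 1.44-fold higher. Its reductase gene Txnrd1 had 1845 on the LPS array and 958 on the control array, 1.93-fold higher, and its ratio was 1.37 after centring. The dimmer Txnrd1 probe sets were at 0.21 and 0.72. Txnip, whose protein binds and inhibits thioredoxin and limits glucose uptake, had 722 on the LPS array and 3658 on the control array, and by its second probe set 429 and 2288. It was 5.06-fold and 5.33-fold lower by the 2 probe sets, and remained past 2-fold under all 5 scalings.

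Txn2, the mitochondrial thioredoxin, had 432 on the LPS array and 554 on the control array, or -0.36 on the log2 scale, a value that is positive once centred and under loess. Txnrd2, its reductase gene, had 73.4 on the LPS array and 187 on the control array, 2.55-fold lower, but its 4 probe sets ranged from -2.79 to -0.11, so its size was not settled, and it was within 2-fold at -0.93 after centring and -0.75 with its median probe set. Txndc5, a protein disulfide isomerase of the endoplasmic reticulum with thioredoxin domains, had 345 on the LPS array and 536 on the control array, at -0.63.

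Glutaredoxins remove glutathione from proteins. Glrx, the cytosolic form, had 2152 on the LPS array and 821 on the control array, 2.62-fold higher, and its second probe set had 1423 and 605, 2.35-fold higher. Under all 5 scalings it was past 2-fold. Glrx2, whose main product is mitochondrial, had 443 on the LPS array and 531 on the control array, at -0.26, with its 3 probe sets between -0.46 and -0.20, and after centring it stood at 0.16.

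Superoxide dismutases turn superoxide into hydrogen peroxide, and catalase breaks the peroxide down. Sod2, a textbook target of NF-kB, had 9307 on the LPS array and 1037 on the control array. Its other 3 probe sets had 8406 and 1017, 3691 and 205, and 392 and 40.4 on the LPS and control arrays. All 4 lay far above 2-fold, between 3.05 and 4.17 on the log2 scale. Sod1, the cytosolic copper-zinc enzyme, had 2344 on the LPS array and 3199 on the control array, at -0.45, with a dimmer probe set at -1.36. Sod3, the secreted form, was under the floor on both arrays by both probe sets. Cat, the catalase gene, had 1979 on the LPS array and 4762 on the control array, 2.41-fold lower, and its second probe set had 1574 and 4168. After centring it stood at -0.84, within 2-fold.

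The remaining reductases all had negative ratios as deposited, as most measured genes of the array did, and after centring 1 of the 7 measured was positive. Blvra, whose enzyme turns biliverdin into bilirubin, had 743 on the LPS array and 2276 on the control array, 3.06-fold lower, and remained past 2-fold under all 5 scalings, though it rests on 1 probe set. Blvrb, the flavin reductase of the same pathway, had 2432 on the LPS array and 3389.8 on the control array, at -0.48. Msrb1, a selenoprotein that repairs oxidized methionine, had 841 on the LPS array and 1794 on the control array, 2.13-fold lower, or -0.67 after centring. Msra, which repairs the other stereoisomer of methionine sulfoxide, had 343 on the LPS array and 541 on the control array, at -0.66.

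Nqo1, a quinone reductase and a classical Nrf2 target, was dim, with 60.6 on the LPS array and 95.3 on the control array, at -0.65. Nqo2, a related quinone reductase, had 424 on the LPS array and 608 on the control array, at -0.52, but its other 2 probe sets, 239 and 757 and 75.0 and 294 on the LPS and control arrays, were 3.17-fold and 3.92-fold lower. The choice of probe set thus decides on which side of 2-fold Nqo2 lies. Akr1a1, an aldehyde reductase, was bright on both arrays, with 14015 on the LPS array and 14444 on the control array, and at -0.04 it hardly differed as deposited.

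**Figure D4:**
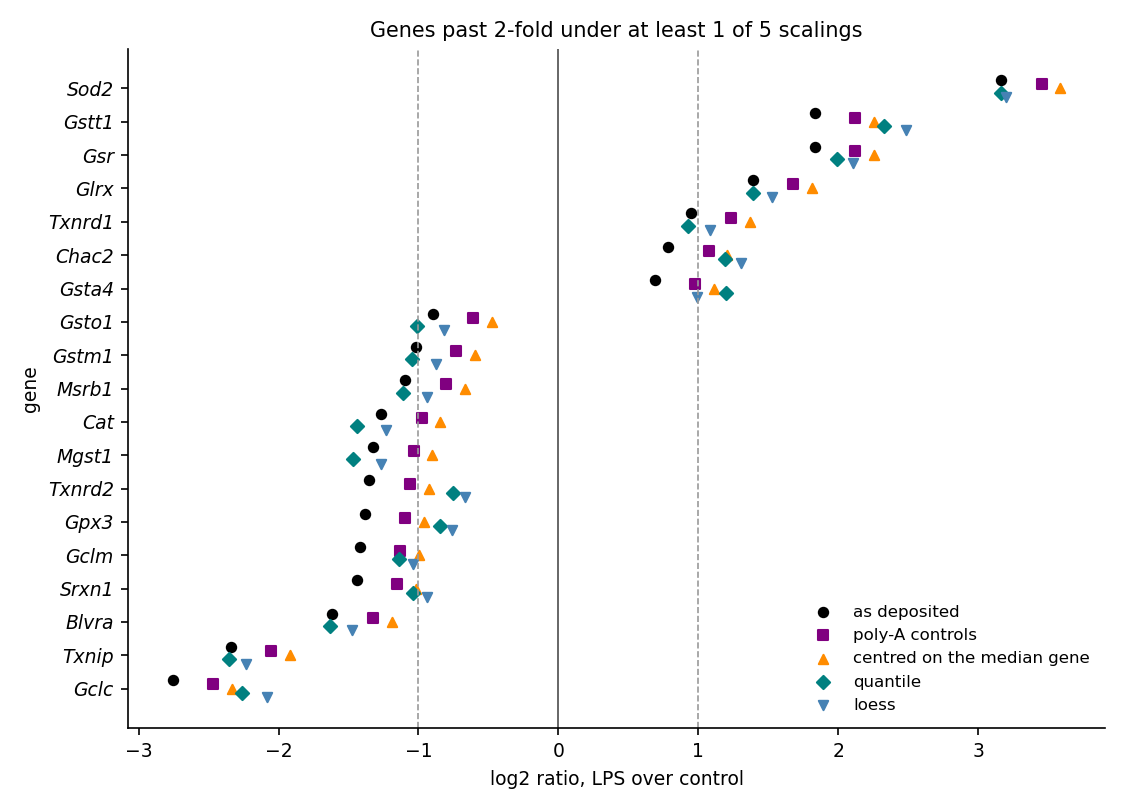
Log2 ratios, LPS over control, of the 19 genes past 2-fold (dashed lines) under at least 1 of 5 scalings, with a marker for each scaling. Sod2, Gstt1, Gsr and Glrx lie right of the upper line and Gclc, Txnip and Blvra left of the lower line with every marker.

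The scaling of the arrays mattered for the genes of moderate ratio. The 5 scalings were the deposited values, centring on the median gene, quantile normalization, loess on mean signal, and scaling to the poly-A control RNAs that the standard protocol adds before labelling, whose median ratio was -0.29 over 24 probe sets. Under all 5, 4 members were at least 2-fold higher (Sod2, Gstt1, Gsr and Glrx), against 8.04% of all measured genes, and 3 were at least 2-fold lower (Gclc, Txnip and Blvra), against 12.8%. The sign was the same under all 5 for 37 of the 43 members. The 6 others, all with deposited ratios between -0.44 and -0.04, were Gss, Gstt2, Mgst2, Txn2, Glrx2 and Akr1a1.

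Pairs of related enzymes can be compared without a common scaling factor, because it cancels in the difference of their ratios. Of 14 pairs listed, 11 had both genes measured, and 6 of these differed by at least 2-fold as deposited. The same share over other pairs of genes was not computed. Sod2 exceeded Sod1 in ratio by 3.61 on the log2 scale, or 12.2-fold, and the probe sets of both genes lay wholly apart. Txn1 exceeded its inhibitor Txnip by 2.87, or 7.30-fold. Txnrd1 exceeded the mitochondrial Txnrd2 by 2.30, although the Txnrd2 probe sets nearest to it came within 0.32 of the lowest for Txnrd1. Glrx exceeded Glrx2 by 1.65. Gclm exceeded Gclc by 1.34, but with the LPS signal of Gclc near the floor this difference fell within 2-fold with a floor at the 65th percentile, at 0.57, and with a pseudocount of 16, at 0.93.

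The other pair was Blvra and Blvrb, of which Blvra was the lower in ratio by 2.20-fold as deposited and by -0.99 on the log2 scale, just under 2-fold, after quantile normalization. The other 5 remained past 2-fold after quantile normalization and after loess, Gclm over Gclc by the least, at 1.12 and 1.04. Txn1 exceeded Txn2 by 0.88 and Mgst1 was below Mgst3, with a difference of -0.89, both within 2-fold. Gpx1 minus Gpx4 was 0.19 as deposited. Msrb1 minus Msra was -0.44 as deposited and -0.78 after quantile normalization. Nqo1 minus Nqo2 was -0.14 as deposited but 0.19 after quantile normalization, 0.12 after loess and 1.01 with the median probe set of each gene, so its direction was not settled.

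**Figure D5:**
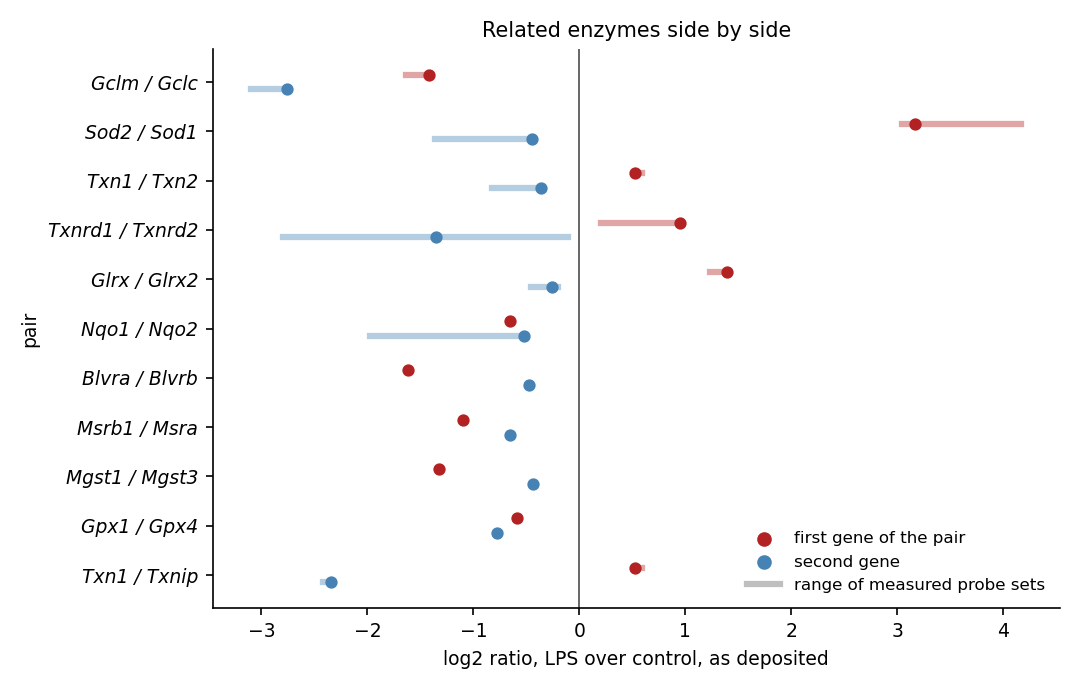
Log2 ratios, LPS over control, of the 11 measured pairs, with the first gene of a pair in red above the second in blue, points for the brightest probe set and bars for the range of a gene's measured probe sets. The ranges lie apart in 10 of the 11 pairs, the exception being Nqo1 and Nqo2, though several genes rest on 1 probe set. In the pairs Blvra and Blvrb, Msrb1 and Msra, and Mgst1 and Mgst3 both genes do, so their ranges could hardly overlap. Those of Gpx1 and Gpx4 are only 0.16 apart.

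Grouped by properties other than role, the members again lay on both sides. Of 10 measured genes listed as textbook Nrf2 targets, 1 was at least 2-fold higher (Gsr) and 4 were lower (Gclc, Srxn1, Gclm and Gstm1), shares of 10% and 40% against 8.22% and 26.2% of all measured genes, with a median of -0.57. After centring, 3 were higher (Gsr, Txnrd1 and Gsta4) and 2 were lower (Gclc and Srxn1), or 30% and 20% against 13.1% and 15.3%. Gsta4 was under the floor on the control array, and lay just within 2-fold after loess, at 0.99, and poly-A scaling, at 0.98. Of 5 mitochondrial members, Sod2 was higher and Txnrd2 lower, and the other 3 lay within 2-fold. That is 20% each way, beside 8.22% and 26.2% of all measured genes. After centring 1 was higher (Sod2, 20%) and 0 were lower, beside 13.1% and 15.3%. Of 7 measured members of the secretory pathway, membranes or outside of the cell, 0 were higher and 2 (28.6%) were lower, Gpx3 and Mgst1. The same shares of all measured genes, 8.22% and 26.2%, apply. After centring 0 were past 2-fold, beside 13.1% and 15.3% of all measured genes.

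Neighbouring genes of the pathway had shares of calls that are set beside those of the array, 8.22% higher and 26.2% lower. Among 29 measured further genes of glutathione and thioredoxin metabolism, 3 (10.3%) were past 2-fold on the higher side and 8 (27.6%) on the lower, close to the array's shares, and their median was -0.41. Ggct, which releases 5-oxoproline in glutathione breakdown, had 487 on the LPS array and 61.8 on the control array, 7.87-fold higher. Slc7a11, the cystine importer that feeds glutathione synthesis, had 134 on the LPS array and 24.8, under the floor, on the control array, at least 3.82-fold higher. Hagh, a glyoxalase that returns glutathione from its lactoyl ester, had 165 on the LPS array and 577 on the control array, 3.50-fold lower.

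Of 16 measured genes that supply NADPH, 2 (12.5%) were past 2-fold on the higher side and 3 (18.8%) on the lower, around a median of -0.40. Nadk2, the mitochondrial NAD kinase, had 30.7 on the LPS array and 415 on the control array, 13.5-fold lower, but its 3 probe sets ranged from -3.76 to -0.49. Its LPS signal was close to the floor of 26.7, so the size depends on where the floor is set. Idh1, the cytosolic isocitrate dehydrogenase, was 3.48-fold lower, with 1159 on the LPS array and 4033 on the control array. Mthfd2, an enzyme of mitochondrial folate metabolism, was 3.39-fold higher, with 920.02 on the LPS array and 272 on the control array.

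Of 20 measured genes of selenoprotein synthesis and other selenoproteins, 1 (5%) was past 2-fold on the higher side and 3 (15%) on the lower, and the median was -0.47. Pstk and Sephs2, which prepare the selenocysteine tRNA and its selenium donor, were 4.35-fold and 2.64-fold lower. Pstk had 39.6 on the LPS array, near the floor of 26.7, and 173 on the control array, and Sephs2 had 408 and 1080.1. Selenow, a small selenoprotein, had 1863 on the LPS array and 829 on the control array, 2.25-fold higher.

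Of 14 measured regulators of Nrf2 and further targets, 0 were at least 2-fold higher and 2 (14.3%) were lower as deposited. After centring 3 (21.4%) were higher and 1 (7.14%) was lower, against 13.1% and 15.3% of all measured genes. Bach1, the repressor that competes with Nrf2 at antioxidant response elements, had 788 on the LPS array and 2164 on the control array, 2.75-fold lower. Slc48a1, a heme transporter, had 499 on the LPS array and 1308 on the control array, 2.62-fold lower. Mafk, a small Maf partner of both factors, had 482 on the LPS array and 249 on the control array, 1.93-fold higher.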

How the data were processed

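Each array's deposited column holds 1 linear intensity for every probe set. MAS5 was the tool named, per the submitters' processing notes, while its version, scaling target, detection calls and a genome build were not given in the sources used here. Among 45101 probe sets were 64 controls, and the annotation gave 1 gene for 34945, several genes for 932 and no gene for 9160. All 46 members with a probe set matched RefSeq gene identifiers, with 0 symbols changed. The arrays were grouped by their titles.

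From these values were computed floors at the 50th percentile, log2 ratios, counts past 2-fold and medians (Python 3.11.15, pandas 2.3.3, numpy 2.4.6; loess from statsmodels 0.14.6, span 0.4). With 1 array per condition no p-value was computed. All measured members are named, and of each neighbouring list the 3 genes with the largest ratios in size. The members, lists, pairs, motifs and thresholds were chosen with earlier results of these data known. The steps were tested on simulated arrays, made from the control array with added noise and no shift between arrays. Changes were planted only in genes well above the floor, so that test does not cover the shift or signals near the floor. Alternatives were other floors (35th and 65th percentile), a pseudocount of 16, 4 scalings, other probe set rules and other thresholds (3-fold and 1.5-fold).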

Additional observations from a re-analysis of the deposited data

How the results depend on the processing

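No paired analysis was possible because each condition has 1 array. The numbers of measured members past 2-fold, 4 higher and 11 lower, and their median log2 ratio of -0.59 depended most on scaling and threshold. Centring on the median gene gave 7 higher, 4 lower and a median of -0.17. With loess, 6 (13.95%) were lower, against 14.1% of all genes, and the median was -0.25, against -0.04. Scaling to the poly-A controls gave a median of -0.30, against -0.13. At 3-fold 3 (6.98%) were lower, against 12.2% of all genes. At 1.5-fold 7 (16.3%) were higher and 22 (51.2%) lower, against 13.0% and 42.0%. Quantile normalization gave 6 (13.95%) higher and 10 (23.3%) lower, against 11.6% and 15.6% of all genes. Under this and the other alternatives the counts stayed within 1.5 times those as deposited, which does not set them against the shares of all genes. Of 417 ratios of single members recomputed under an alternative, 270 moved by less than the median SD between probe sets of a gene, 0.28. The other 147 moved by more, and 0 of those past 2-fold changed sign. Centring and poly-A scaling subtract constants, -0.42 and -0.29, that exceed 0.28 in size, so every ratio under them counted as moved. A changed floor leaves ratios of brighter genes as they were. The split is thus partly set by the choice of alternatives and does not measure how stable single genes are. Signals near the floor, as of Gclc on the LPS array and Gstt1 on the control array, limit what size can be stated.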

Other observations

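The ratio of a gene varied with its brightness across the array. Among genes with a mean log2 signal of 11 to 14, the 12 antioxidant genes had a median log2 ratio of -0.52, beside -0.08 over all 786 measured genes of that brightness. At 9 to 11 the 9 antioxidant genes had a median of -0.59, beside -0.23 over 2439 genes. At 7 to 9 the medians were closer, at -0.66 over 13 antioxidant genes and -0.61 over 3898 genes. At 5 to 7 the order was the opposite, with -0.55 over 8 antioxidant genes and -0.61 over 3417 genes. These values describe 2 arrays, with no test.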
